A study of Mus musculus with 4 samples.

Results

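Most Ube2 genes encode ubiquitin-conjugating enzymes or their close relatives, and IGF2BP3 eCLIP-seq clusters in mouse testes were examined here across the whole family. Members were the protein-coding genes of GENCODE release M21 (mm10) whose symbol begins with Ube2, 37 of 21951 protein-coding genes. A cluster, a stretch of piled-up reads called in the IP library, was given to a member when its centre lay in the gene span on the same strand. The data came from testes of wild type C57BL/6 mice aged 8 weeks, holding germ cells and somatic cells. 2 replicates were sequenced, each with an IP library made with an IGF2BP3 antibody and a size-matched input (SMInput) library made from a small part of the lysate without antibody, 4 samples in all. No group lacked IGF2BP3, and suspensions of whole testes were crosslinked, so the cell type behind a cluster, and fewer cells of a type from less RNA per cell, cannot be told apart. The study describes the replicates as biological, and the labels do not say which animals each came from.

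Ubiquitin is passed from an activating enzyme (E1) to a conjugating enzyme (E2) and then, with the help of a ligase (E3), to a target protein. The E2 largely sets which chain is built, or which ubiquitin-like modifier is carried. In the testis, Ube2b, a homologue of yeast Rad6, is known for its part in spermatogenesis, since male mice without it are infertile. IGF2BP3 is an RNA-binding protein of germ cells and early embryos that reads N6-methyladenosine (m6A) and acts on the translation and stability of bound mRNAs.

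Places of 5 members at which both replicates showed enrichment are shown by sequence, because the results below describe them in full. Each line gives 30 bases around the centre of the stretch covered by significant clusters of both replicates, 5′ to 3′ on the strand of the mRNA, and capitals mark the bases inside the clusters of both replicates. The sequences were read from the RefSeq assembly GRCm38.p6, at chr11:51985933-51985962 (minus strand) for Ube2b, chr3:89782521-89782550 (plus) for Ube2q1, chr3:135460005-135460034 (plus) for Ube2d3, chr5:107830821-107830850 and chr5:107831031-107831060 (plus) for Ube2d2b, and chr11:72684178-72684207 (plus) for Ube2g1.
Ube2b 3′UTR: ccacgagcagagCTGACTTcctctgctgtg
Ube2q1 3′UTR: GCTGGAACCCTTGCTAGCAGGCATTCTTAT
Ube2d3 CDS: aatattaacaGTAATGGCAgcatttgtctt
Ube2d2b CDS: cccAATCCAGATGATCCCTTAGTGCCTgag
Ube2d2b 3′UTR: ACGCTGTACCTGCCTCATCCTCCCTGGTGC
Ube2g1 3′UTR: TTTGTACTATGATTCACCCATCTCTTGGAT
These stretches were of unlike composition. The Ube2b stretch held 18 G or C bases of 30 and the Ube2d3 stretch 9. Of the bases common to the clusters of both replicates, 0% were marked as repeat sequence in the assembly for the best pairs of Ube2b and Ube2q1, 41% for the adjoining pair of Ube2b, 64.5% for its pair nearest the stop codon and 72.3% for the Ube2j2 pair.

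For each cluster the authors listed the log2(fold change) of IP over SMInput in the same replicate, with its −log10(P), and a cluster is called significant here when neither value is below 2. The libraries held 5133438 IP and 8706391 SMInput reads in replicate 1, and 4637612 IP and 16696122 SMInput reads in replicate 2. Read numbers per cluster were recovered from the listed values, and the 95% intervals given below are exact (Clopper-Pearson) intervals of read counting alone. The deeper SMInput of replicate 2 let clusters of fewer IP reads pass: 4 IP reads against 1 SMInput read gave a −log10(P) of 1.18 in replicate 1 and 2.04 in replicate 2. The tissue label was checked on markers, of which 10 of 10 for germ cells, 5 of 5 for Leydig cells and 5 of 5 for Sertoli cells had a cluster, against 0 of 4 for other organs.

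Clusters were found in 36 of the 37 Ube2 genes in either replicate, with Ube2ql1 the exception, and in 32 in both. Replicate 1 had 1208 clusters in these genes, of which 64 (5.30%) were significant, beside 4.92% of all clusters of the table. Replicate 2 had 821, of which 119 (14.5%) were significant, beside 13.2% of all clusters. The family was therefore close to the background in its share of significant clusters. A significant cluster in both replicates was found in 16 of the 36 genes (44.4%), beside 33.0% of the 14580 protein-coding genes with a cluster. A shared site, that is a place where significant clusters of both replicates overlapped on the same strand, was found in 11 (30.6%), beside 14.0%. The shares of genes are set beside unequal cluster numbers, since the Ube2 genes had a median of 30 and 18.5 clusters each in replicates 1 and 2, against 12 and 9 over all protein-coding genes with a cluster. The part of cluster number in these shares was not tested.

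**Figure D1:**
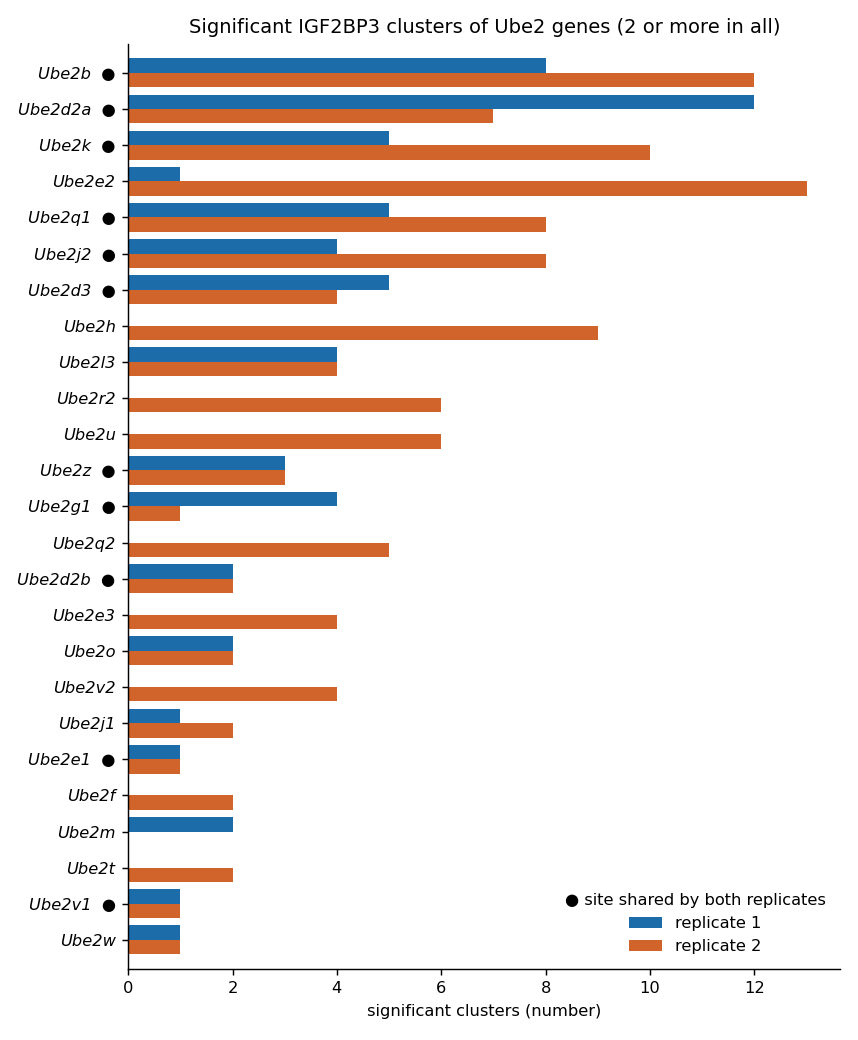
Number of significant IGF2BP3 clusters (horizontal axis) in Ube2 genes with 2 or more over both replicates, in replicate 1 (blue bars) and replicate 2 (orange bars), with a black dot at the genes with a shared site. Ube2b had 8 and 12 and Ube2d2a 12 and 7, whereas Ube2h, Ube2r2 and Ube2u had significant clusters in replicate 2 alone.

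Significant Ube2 clusters had a median log2(fold change) of 2.76 in replicate 1 and 3.02 in replicate 2, beside 2.85 and 3.07 for all significant clusters of the tables. Over Ube2 clusters of any significance it was 1.5 and 1.56, beside 1.5 and 1.53 over all clusters. The IP reads of a significant Ube2 cluster had a median of 17.5 in replicate 1 and of 8 in replicate 2, and 16 of 64 and 74 of 119 held fewer than 10. By number of genes, 20 members had a significant cluster in replicate 1 and 26 in replicate 2. 4 members had one in replicate 1 alone, 10 in replicate 2 alone, and 7 in neither. Such numbers were not counted over all protein-coding genes. Of all clusters, 4.92% were significant in replicate 1 and 13.2% in replicate 2.

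Among the Rad6 homologues, Ube2b stood far above all other members and Ube2a had no significant cluster. Ube2b lies on chr11:51985497-52000762 on the minus strand, and 8 of its 33 clusters in replicate 1 and 12 of its 29 in replicate 2 were significant. All 8 of replicate 1 and 8 of those of replicate 2 lay in the 3′UTR, and the other 4 of replicate 2 were intronic, with 4 to 9 IP reads. The strongest cluster of replicate 1, at chr11:51985883-51985950, held 120 IP reads and 2 SMInput reads. At the same place, replicate 2 had adjoining clusters of 110 IP against 11 SMInput reads and 97 IP against 5 SMInput reads. As reads per 1000000 library reads, the IP level was 23.4 in replicate 1 and 23.7 and 20.9 in replicate 2, and the SMInput level was 0.230, 0.659 and 0.299. The IP levels of the replicates were close to each other and far above both SMInput levels. The log2(fold change) was 6.67 (95% interval 4.78 to 9.73) in replicate 1, and 5.17 (4.27 to 6.21) and 6.13 (4.85 to 7.78) in replicate 2, with −log10(P) of 48.2, 74.4 and 70.5.

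By the smaller log2(fold change) of its best pair, Ube2b had rank 4 of the 2048 protein-coding genes with a shared site, and the next member, Ube2q1, had rank 442. The best pair of Ube2b (smaller value 6.13) overlapped by 7 bases. Its adjoining pair overlapped by 61 bases, with a smaller value of 5.17. The peak lay 735 to 769 bases after the stop codon in a 3′UTR of 1185 bases. Flanking clusters formed 3 further shared sites. Nearer the stop codon, at 594 bases, 23 IP and 3 SMInput reads gave 3.70 in replicate 1 and 24 and 6 reads gave 3.85 in replicate 2. At 349 bases the values were 2.35 (24 IP and 8 SMInput reads) and 2.26 (28 and 21). At 987 bases they were 2.55 (31 and 9) and 2.46 (29 and 19). Enrichment was thus found on both sides of the peak, at a lower level. A cluster of 19 IP and 3 SMInput reads, 472 bases after the stop codon, was significant in replicate 2 alone (4.51).

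The rest of the Ube2b mRNA was little enriched, although it gave reads. The cluster just after the stop codon, at 111 bases in replicate 1 and 108 in replicate 2, held 42 IP and 37 SMInput reads (log2(fold change) 0.95) and 23 and 38 reads (1.12). The coding sequence and 5′UTR on the mRNA gave values from −0.56 to 1.04 in replicate 1. In replicate 2 they ran from −0.21 to 1.0. All clusters of Ube2b also lay inside the span of Gm26551, a lincRNA gene of the same strand at chr11:51949882-52269514. Ube2b was lost when clusters in several genes were left out. However, none of the 30-base words at the shared pairs of Ube2b stood in a transcript of another gene. The numbers were 0 of 32 at the adjoining pair and 0 of 1 at the best pair. Which of the overlapping genes gave the reads was not tested.

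**Figure D2:**
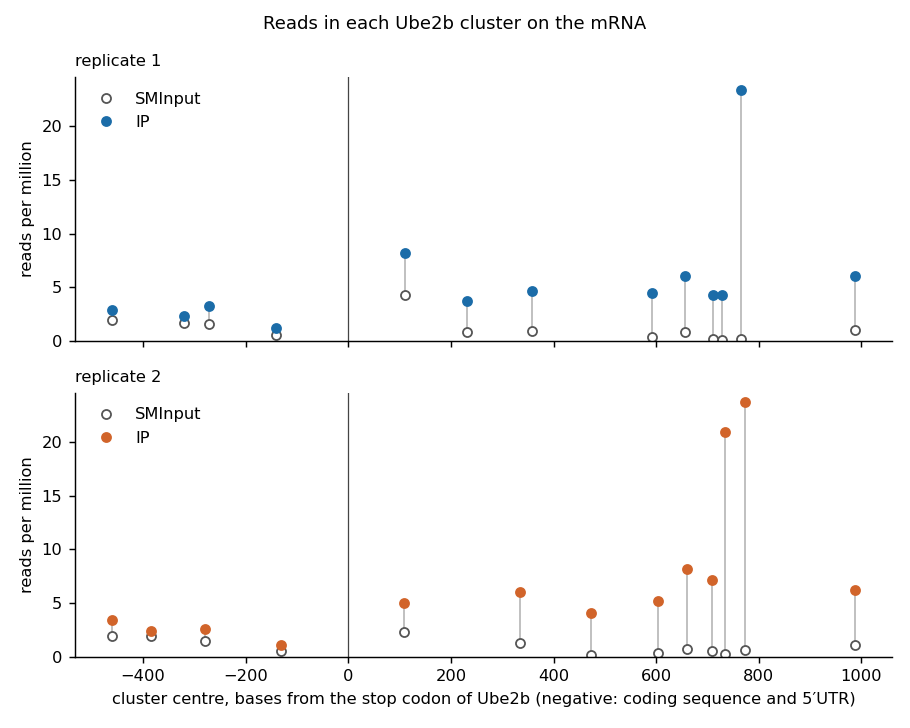
Reads per 1000000 library reads in the IP (filled) and SMInput (open) in each Ube2b cluster on the mRNA with recovered read numbers, by the distance of the cluster centre from the stop codon in bases, for replicate 1 (top) and replicate 2 (bottom). The IP level reached 23.4 in replicate 1 and 23.7 in replicate 2 at 766 and 774 bases after the stop codon, with SMInput levels of 0.230 and 0.659.

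Ube2a, the X-linked homologue (chrX:36873900-36884222, plus strand), had 2 clusters in each replicate. In replicate 1 they held 7 IP and 10 SMInput reads (log2(fold change) 0.25) and 4 and 1 reads (2.76). In replicate 2 they held 4 and 5 reads (1.53) and 4 and 2 reads (2.85). The highest −log10(P) among them was 1.18 in replicate 1 and 1.64 in replicate 2. The clusters of Ube2a were shallow in the SMInput too, with at most 10 and 5 reads, against at most 37 and 38 for Ube2b. The difference between these homologues was not tested.

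The Ube2d class, short E2s that work with many RING-type E3s, had shared sites in 3 of its 6 members, 7 sites in all. Ube2d2b, an intronless gene on chr5:107830099-107831776, gave only 3 clusters in each replicate, and 2 of them were significant in both. Its 3′UTR cluster, 117 bases after the stop codon, held 140 IP and 36 SMInput reads in replicate 1, the most IP reads of any significant Ube2 cluster there, and 108 and 41 in replicate 2. The log2(fold change) there was 2.72 (2.18 to 3.29) and 3.25 (2.71 to 3.80). Its coding cluster, 93 bases before the stop codon, held 30 and 10 reads (2.35, 1.28 to 3.54) and 35 and 20 reads (2.66, 1.82 to 3.53). Its 5′UTR cluster did not pass, at 1.55 and 1.63, so both replicates placed the same parts of the mRNA above and below the threshold. None of the 30-base words of its 3′UTR site (0 of 65) stood in a transcript of another gene.

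Ube2d3 had 5 significant clusters of 37 in replicate 1 and 4 of 28 in replicate 2, and its shared site lay in the coding sequence, with the best pair 201 bases before the stop codon. That pair held 31 IP and 4 SMInput reads in replicate 1 and 22 and 12 in replicate 2, and the log2(fold change) was 3.72 (2.22 to 5.68) and 2.72 (1.65 to 3.87). 3′UTR clusters of Ube2d3 were significant in each replicate, but did not overlap each other. The one of replicate 1 held 39 IP and 8 SMInput reads (3.05). Replicate 2 had an overlapping cluster of 15 and 14 reads (1.95, −log10(P) 3.65), just below the fold threshold. The 30 bases shown above for Ube2d3 also stood in transcripts of 5 other genes, Ube2d2a among them. Reads lying wholly within those 30 bases cannot be told apart between these genes. How reads that match several loci were treated is not given in the sources used here. Toward the stop codon the overlaps lay in other sets of genes, with 13 of 13 words of the next pair found elsewhere (not in Ube2d2a) and 0 of 1 of the last.

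Ube2d2a had the most significant clusters of any member in replicate 1, 12 of 53, and 7 of 42 in replicate 2, with 4 shared sites. The best of them, in the coding sequence, held 39 IP and 8 SMInput reads (3.05, 1.93 to 4.36) and 20 and 9 reads (3.0, 1.80 to 4.32). The clusters of this best pair overlapped by 3 bases. The other 3 sites ran from 2.12 to 4.35 in replicate 1 and from 2.14 to 2.79 in replicate 2. Of the significant clusters, 10 in replicate 1 and 5 in replicate 2 also lay in AC141471.2, a processed transcript of the same strand, and the shared sites of Ube2d2a were lost when such clusters were left out. All 30-base words of its best coding site, and all 15 of the site nearest the stop codon in the coding sequence, also stood in Gm9762, a locus elsewhere, while 0 of 11 words of its 3′UTR site stood in another gene. Ube2d1 had a single significant cluster of 9 IP and 1 SMInput reads (3.93), in replicate 1. The X-linked Ube2dnl1 and Ube2dnl2 had 1 cluster each, in replicates 2 and 1, with 4 and 6 IP reads and log2(fold change) of 2.85 and 1.76, and neither was significant.

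The Ube2e class, E2s with a longer amino-terminal part, had a shared site in Ube2e1 alone, and it was the weakest of the family. It held 12 IP and 5 SMInput reads in replicate 1 (log2(fold change) 2.03, 0.42 to 3.88) and 9 and 8 reads in replicate 2 (2.02, 0.47 to 3.59), 573 bases after the stop codon and 47 bases before the end of the mRNA. These values sat at the threshold, and with P values adjusted by the Benjamini-Hochberg method over all clusters the site was lost (adjusted P of 0.13 in replicate 1, from the authors' chi-square or exact tests). Ube2e2, the member with the longest span and the most clusters (179 and 99), had 1 significant cluster in replicate 1 and 13 in replicate 2. 12 of those 13 were intronic, and they held at most 9 IP reads. Ube2e3 had 4, in replicate 2 alone.

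Of the E2s for lysine-63 chains, Ube2n, the catalytic partner, had 35 and 24 clusters and 1 that was significant, an intronic cluster of 4 IP reads in replicate 2. Its non-catalytic partner Ube2v1 had a shared site in the 3′UTR, 393 bases after the stop codon, with 10 IP and 3 SMInput reads in replicate 1 (2.50, 0.54 to 5.0) and 11 and 4 reads in replicate 2 (3.31, 1.55 to 5.41). That site was lost with adjusted P values, and its clusters also lay in Gm20431, an overlapping protein-coding locus of the same strand that carried 96 of 96 of its 30-base words. Ube2v2, the other partner, had 4 significant clusters in replicate 2, with up to 5 IP reads.

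Ube2g and Ube2j enzymes, which include E2s of endoplasmic reticulum-associated degradation, had shared sites in Ube2g1 and Ube2j2. In Ube2g1 the site lay in the 3′UTR, 706 bases after the stop codon, and held 38 IP and 4 SMInput reads in replicate 1 and 30 and 24 in replicate 2. The log2(fold change) was 4.01 (2.54 to 5.96) and 2.17 (1.35 to 3.01), the widest gap between replicates of any shared pair, with intervals that still overlapped. All 4 significant Ube2g1 clusters of replicate 1 and the 1 of replicate 2 were in the 3′UTR. The membrane-anchored Ube2j2 had its site 283 bases after the stop codon, with 24 IP and 6 SMInput reads (2.76, 1.43 to 4.34) and 28 and 18 reads (2.49, 1.58 to 3.43). 5 of the 8 significant clusters of Ube2j2 in replicate 2 were in the coding sequence, against 1 of 4 in replicate 1. Ube2j1, also membrane-anchored, had 1 and 2 significant clusters that did not overlap, and Ube2g2 had 0 and 1.

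Ube2k, which builds lysine-48 chains, had 5 significant clusters of 83 in replicate 1 and 10 of 79 in replicate 2, and its shared sites were both in the coding sequence, close to the stop codon. The stronger, 65 bases before the stop codon, held 23 IP and 7 SMInput reads (2.48, 1.21 to 3.94) and 22 and 13 reads (2.61, 1.55 to 3.72). The other held 15 and 6 reads (2.08) and 20 and 11 reads (2.71). Although its 3′UTR runs to 4039 bases, Ube2k had no significant 3′UTR cluster in either replicate. 7 of its 10 significant clusters in replicate 2 were intronic. Ube2r2, a relative of the cell cycle E2 Cdc34, had 0 and 6. The E2s of the anaphase-promoting complex, Ube2c and Ube2s, had 0 and 0, and 1 and 0, although Ube2s clusters reached 45 and 71 SMInput reads.

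The members described here as E2s for NEDD8 or ISG15 showed no shared site. Ube2m, an E2 for NEDD8, had 2 significant coding clusters in replicate 1 (20 IP and 4 SMInput reads, 3.08, and 12 and 5 reads, 2.03) and 0 in replicate 2, while its clusters reached 85 and 76 SMInput reads. Ube2f, the other E2 for NEDD8, had 0 and 2. Ube2l6, the E2 for ISG15, had 3 clusters in replicate 1, none significant, and 0 in replicate 2.

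Of the remaining members, Ube2q1 came next after Ube2b. It had 5 significant clusters of 23 in replicate 1 and 8 of 15 in replicate 2, and 3 shared sites, all in the 3′UTR. The best pair, 247 bases after the stop codon, held 41 IP and 7 SMInput reads in replicate 1 and 20 and 7 in replicate 2, with nearly equal log2(fold change) of 3.31 (2.14 to 4.71) and 3.36 (2.06 to 4.85). A second place, 90 bases after the stop codon, was deeper and slightly less enriched, with 44 and 12 reads (2.64) and 57 and 25 reads (3.04). The last, at 981 bases, rested on 10 and 2 reads (3.08) and 11 and 2 reads (4.31). The coding sequence of Ube2q1 had 4 significant clusters in replicate 2 and 0 in replicate 1. Its relative Ube2q2 had 0 and 5, with at most 12 IP reads.

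Ube2z, which is charged by the E1 Uba6, had 3 significant clusters in each replicate and a shared site in the 3′UTR, 191 bases after the stop codon. It held 22 IP and 5 SMInput reads (2.90, 1.46 to 4.66) and 15 and 12 reads (2.17, 0.98 to 3.40). Genes with significant clusters in both replicates that did not overlap were Ube2e2, Ube2j1, Ube2l3, Ube2o and Ube2w. Ube2l3, an E2 of HECT and RBR ligases, had 4 and 4, with 2 and 3 of them in the 3′UTR from 464 to 1767 bases after the stop codon. These significant 3′UTR clusters did not overlap between replicates. Replicate 1 also had clusters, not significant, that overlapped significant ones of replicate 2, at 2.08 against 3.70 and 1.57 against 2.53. Ube2o, a large enzyme that acts as E2 and E3, had 2 of 44 and 2 of 31, and Ube2w, which tags protein amino termini, had 1 of 75 and 1 of 39. Ube2t, the E2 of the Fanconi anaemia pathway, had 0 of 15 and 2 of 16, and Ube2cbp had 2 clusters in replicate 2, neither significant. Ube2cbp is known as an E2-binding protein and not as a conjugating enzyme, and was counted because the symbol chose the members. Without a shared site, the 5 members with the most significant clusters were Ube2e2 (14 in all), Ube2h (9), Ube2l3 (8), Ube2r2 (6) and Ube2u (6). The significant clusters of these 5 had log2(fold change) from 2.26 to 4.85 and at most 18 IP reads. In the 10 members with significant clusters in replicate 2 alone, 33 of 40 such clusters held fewer than 10 IP reads.

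Along the mRNAs, 14 of the 21 shared sites were in 3′UTRs and 7 in coding sequences. The 3′UTR pairs lay 90 to 1377 bases after the stop codon, and the 11 coding pairs lay 65 to 311 bases before it. No shared site was intronic or in a 5′UTR. Of the 14 sites in 3′UTRs, 4 were in Ube2b. The regions of shared sites were not counted over all genes, so this split is not set beside a background. In 31 of 31 shared pairs the 95% intervals of the replicates overlapped, and replicate 2 was higher in 15 and replicate 1 in 16. The median difference, replicate 2 minus replicate 1, was −0.01 on the log2 scale. The selection of pairs that passed in both replicates leaves out disagreeing ones.

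**Figure D3:**
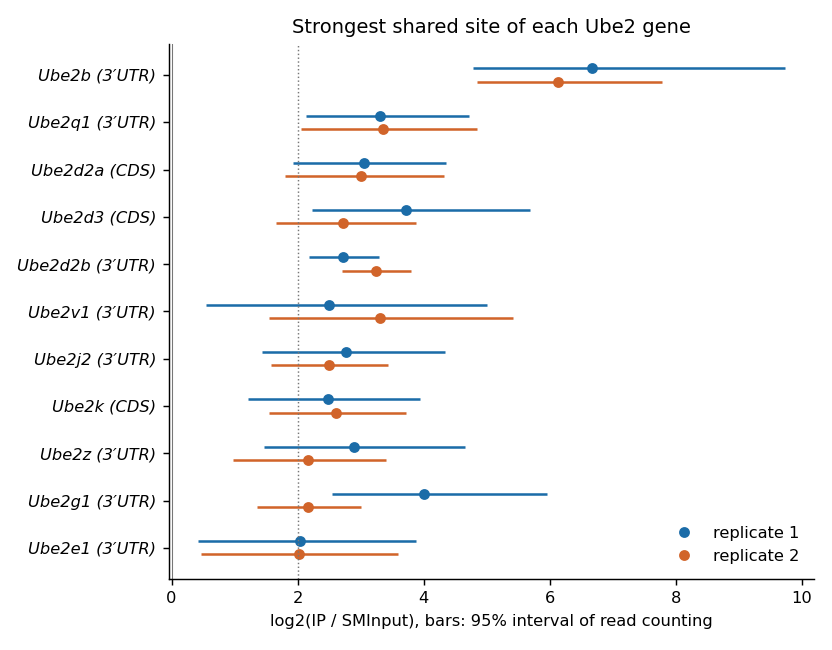
log2 of IP over SMInput at the best shared pair of each of the 11 Ube2 genes, ordered by the smaller of both values, for replicate 1 (blue) and replicate 2 (orange), with 95% exact intervals of read counting as bars and the threshold of 2 as a dotted line. Ube2b, at 6.67 and 6.13, lies apart from the others, whose lower intervals mostly reach below 2.

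**Figure D4:**
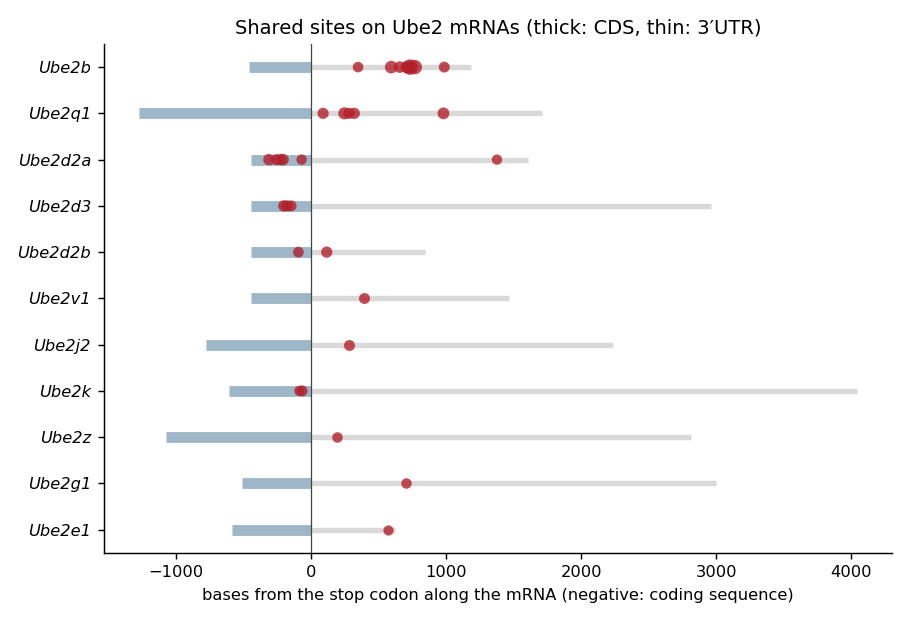
Position of each shared pair (red dots, larger with a higher smaller log2 value) on the mRNA of its gene in bases from the stop codon, with the coding sequence as a thick and the 3′UTR as a thin bar. The Ube2d3 and Ube2k sites lay before the stop codon, Ube2d2a and Ube2d2b had sites on both sides, and those of the other 7 genes lay in 3′UTRs.

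Without regard to significance, 319 pairs of clusters overlapped between the replicates, in 30 genes. Across these pairs the log2(fold change) of both replicates had a Pearson r of 0.649 and a Spearman rho of 0.583. The pairs share genes and, in part, clusters, and are not independent. Of them, 31 were significant in both replicates, 15 in replicate 1 alone, 35 in replicate 2 alone and 238 in neither. Most overlapping pairs thus failed in both replicates, and those that passed in a single replicate outnumbered those that passed in both. Overlapping pairs were not counted over all genes, and 4.92% and 13.2% of all clusters were significant in replicates 1 and 2. Whether the Ube2 pairs differ from those of other genes was not tested.

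**Figure D5:**
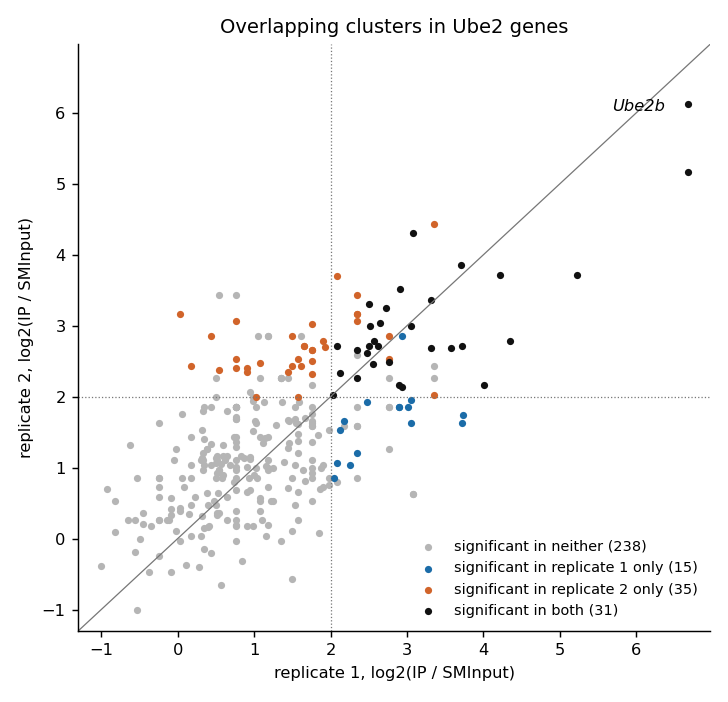
log2 of IP over SMInput in replicate 1 (horizontal) and replicate 2 (vertical) for the 319 overlapping cluster pairs in Ube2 genes, coloured by the replicate in which they were significant; dotted lines mark 2 and the solid line equality. The highest points, at 6.67 in replicate 1, belong to Ube2b.

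By gene region, 31 of 64 significant Ube2 clusters of replicate 1 lay in 3′UTRs (48.4%, 95% exact interval 35.8 to 61.3), 22 in coding sequences (34.4%), 10 in introns (15.6%) and 1 in a 5′UTR. For all significant clusters in protein-coding genes the shares were 44.7% for 3′UTRs, 29.5% for coding sequences and 22.4% for introns. In replicate 2, 37 of 119 lay in 3′UTRs (31.1%, 22.9 to 40.2), 26 in coding sequences (21.8%) and 54 in introns (45.4%), beside 37.9%, 21.2% and 37.9% over all. Clusters that were not significant were mostly intronic, 74.5% in replicate 1 and 66.8% in replicate 2, with 8.92% and 10.4% in 3′UTRs. Over all protein-coding genes, 59.2% and 47.6% of such clusters were intronic, and 9.52% and 10.8% lay in 3′UTRs. The Ube2 genes thus had a higher listed intronic share before any threshold on significance. The 2 sides were labelled unlike. Regions of Ube2 clusters came from transcripts of the gene itself, and those over all genes from any transcript of the strand. The part of this in the difference was not tested. Ube2e2 alone gave 179 and 99 of the Ube2 clusters. The intronic significant clusters were shallow. Their median was 8 IP reads for replicate 1 and 5.5 for replicate 2 (range 4 to 14), against 19 and 15 in 3′UTRs. With at least 10 IP reads required, 45 clusters of replicate 2 were left and 62.2% of them lay in 3′UTRs. Ube2b gave 8 of the 3′UTR clusters in each replicate, and without it the 3′UTR share was 41.1% and 27.1%.

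The letters around the clusters were searched for GGACT, a form of the m6A consensus, and for ACACA, a CA-rich word of the kind that IGF2BP proteins are known to bind. GAACA was searched as well, and so was AAACC, both because the study had drawn them from IGF2BP3 clusters, so these choices are not independent of the data. Windows of 100 bases at the cluster centre were searched on the cluster's strand alone, and neighbouring windows overlap. GGACT was found in 6 of 64 windows of significant Ube2 clusters in replicate 1 (9.38%) and 11 of 119 in replicate 2 (9.24%), beside 9.92% and 9.09% of windows at all significant clusters. AAACC was found in 12.5% and 13.4%, beside 8.65% and 8.14%. GAACA was found in 7.81% and 6.72%, beside 8.87% and 8.38%, and ACACA in 3.12% and 5.88%, beside 11.1% and 10.7%. Any of the words was present in 31.2% and 30.3% of windows, beside 32.7% and 31.2%. The median G and C content was 42% and 44%, beside 47% and 46%.

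The other steps of the pathway were counted on fixed lists for comparison. Of 10 genes with a cluster that encode ubiquitin or ubiquitin-like modifiers, 2 had significant clusters in both replicates and 0 a shared site. For E1 genes the numbers were 9, 5 and 2, and the shared sites were in Uba6 (7 IP and 1 SMInput reads, 3.57, and 6 and 2 reads, 3.43) and Sae1 (11 and 2 reads, 3.22, and 14 and 11 reads, 2.20). For E2 genes with other names they were 7, 2 and 1, the shared site being in Tsg101. For E3 genes and partners they were 33, 23 and 11. Rad18, the DNA repair E3 that works with the Rad6 homologues, had 7 and 14 significant clusters, and its best pair held 35 and 9 reads (2.72) and 46 and 8 reads (4.37) in the 3′UTR. Other E3s of the Rad6 homologues, Rnf20 and Rnf40, had 1 and 0, and 0 and 0. Among larger families, significant clusters in both replicates were found in 51.3% of 76 Rnf genes, 54.2% of 48 Usp genes and 16.2% of 37 proteasome subunit genes, and shared sites in 21.1%, 25% and 8.11%, beside 44.4% and 30.6% of the Ube2 genes. These shares were not tested against each other or against those of all genes. Cluster numbers differed between genes here too, with 220 and 201 in the E3 gene Ubr4, and their part was not tested.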

How the data were processed

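eCLIP-seq of mouse testes (2 IP and 2 SMInput libraries) was analysed from 1 table of clusters per replicate. The authors trimmed reads with cutadapt, removed ribosomal RNA reads with Bowtie2, aligned the rest to mm10 with STAR, removed PCR duplicates with the molecular barcodes and called clusters with Clipper. The deposited −log10 P-values are the authors' comparison of IP and SMInput reads (Yates chi-square or Fisher's exact test). The deposited log2 values give the fold of IP over SMInput after scaling to library totals. A −log10 value of 0 was listed for 108 and 45 Ube2 clusters, whose reads were not recovered.

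Library totals and read numbers were recovered as the whole numbers that return both listed values. This failed for 0.0226% and 0.0771% of clusters listed above 0 and below 400. On simulated data like replicates 1 and 2, the read numbers were right in 2502 of 2502 and 2590 of 2590 clusters. The simulated P values were made by the same test rule that the recovery assumes. This checks the recovery step and cannot show that the authors used that rule. Intervals cover counting error only. Gene spans and regions came from GENCODE M21, in the order 3′UTR, CDS, 5′UTR, intron over basic transcripts, and positions on the mRNA from 1 transcript a gene (APPRIS principal first). Regions of Ube2 clusters were set on the gene's own transcripts, and those over all genes on any transcript of the strand. Sequences came from RefSeq GRCm38.p6. No test between samples was run. Members, gene lists and motifs were chosen with earlier results of these data known. Values were given in full for members with a shared site and for Ube2a and Ube2b, and by count and range for the others, of which the 5 with the most significant clusters were to be named. Single clusters of Ube2d1, Ube2dnl1, Ube2dnl2, Ube2l3, Ube2m, Ube2n and Ube2t were chosen after their values were seen. Alternatives covered thresholds, adjusted P-values, gene assignment, read minimum, overlap, region order and each replicate alone. Analysis used Python 3.11.15 with scipy 1.17.1. The values of 1 member and the sequence of 1 shared site are not reported here.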

Additional observations from a re-analysis of the deposited data

How the results depend on the processing

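Of the 11 genes with a shared site, Ube2q1 kept it under every alternative on both replicates, and Ube2d2b, Ube2d3 and Ube2k under all but both thresholds at 3, which Ube2b, Ube2d2a and Ube2q1 passed. Ube2d2a passed them only by the pair of clusters that overlapped by 3 bases, at 3.05 and 3.0. With thresholds of 3, 3 genes had significant clusters in both replicates and 3 a shared site, 15 and 22 clusters were significant with median log2(fold change) of 3.72 and 3.66, and the 3′UTR share of replicate 2 was 59.1%. With the log2 threshold lowered to 1 the medians were 2.50 and 2.66, and Ube2j1 and Ube2n gained a shared site. Clusters centred in an exon numbered 65 in replicate 2, 56.9% of them in 3′UTRs, with a median of 2.7. At least 10 IP reads left 45 there, 62.2% in 3′UTRs, with a median of 2.7, and Ube2e1 lost its site. Assigning clusters to the nearest start site gave 10 genes in place of 16 and 3′UTR shares of 27.3% and 20.8%, and Ube2e1, Ube2g1, Ube2j2 and Ube2z lost their shared site, while Ube2r2 gained 1. Adjusted P values left 11 genes with significant clusters in both replicates and 9 with a shared site. Leaving out clusters in several genes left 8 shared-site genes, without Ube2b, Ube2d2a and Ube2v1. With each replicate alone, 20 to 26 genes had a significant cluster. The other results stayed within 1.5 times for counts, within the binomial interval for shares, or within the spread between replicates for medians. No paired analysis was possible because the results come from no test between samples, clusters were called in each replicate with bounds of their own, and each listed value already sets the IP against the SMInput of its replicate. Intronic significant clusters held few IP reads, so that a few reads decide the call there. The part of depth was not tested.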

Other observations

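Loci named Ube2 that are not protein-coding were counted apart. The pseudogene Ube2d-ps on chromosome 11 had 10 clusters in replicate 1, of which 2 were significant, and 3 in replicate 2, of which 0 were significant, with at most 8 and 3 IP reads in a cluster. Ube2n-ps1 had a single cluster in replicate 1, of 3 IP and 2 SMInput reads (log2(fold change) 1.35). Ube2l3-ps1, Ube2nl, Ube2d4 and the antisense gene Ube2uos had 0 clusters.

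Some clusters, chosen after their values were seen, were significant in a single replicate. In Ube2l3, a 3′UTR cluster of replicate 2 held 16 IP and 2 SMInput reads (log2(fold change) 4.85), and replicate 1 had no cluster there. In Ube2t, an E2 of the Fanconi anaemia pathway, a 3′UTR cluster of replicate 2 held 38 IP and 26 SMInput reads (2.40), and the overlapping clusters of replicate 1 held 10 and 10 reads (0.76) and 10 and 9 reads (0.91). In Ube2d3, a 5′UTR cluster of replicate 2 held 61 IP and 43 SMInput reads (2.35), and the overlapping cluster of replicate 1 held 80 and 50 reads (1.44, −log10(P) 7.87), above the P threshold and below the fold threshold.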
